A study of Mus musculus with 6 samples.

Results

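Most genes described here encode proteins that act in the choice of splice sites. They are SR proteins, heterogeneous nuclear ribonucleoproteins (hnRNPs), the kinases that phosphorylate SR proteins, and a few relatives. The set also holds Prrc2c, which encodes an RNA-binding protein of stress granules, and the noncoding transcript Srrm4os. All were measured in pancreatic islets of mice given bisphenol A (BPA), an oestrogen-like compound from plastics, or the vehicle alone. Members were taken by symbol: every probe set with a single gene whose symbol starts with Srsf, Hnrnp, Srpk, Luc7l or Srrm, and those of Clk1 to Clk4, Tra2a, Tra2b and Prrc2c. This gave 47 of the 18193 genes named on the array, with 159 probe sets, a probe set being a group of short probes that together give a transcript 1 signal. The set was itself selected on measured values, since Srpk2 and Prrc2c had stood among the lowest p-values of the BPA comparison in these same arrays. All differences between BPA and control of the members are therefore given as a description, with no test.

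Islets came from OF1 males, 10 weeks old. The 3 control samples had received corn oil alone, the series' design giving a volume of 100 µL, and the 3 BPA samples BPA in that oil; each sample has its own Affymetrix array. The labels give the exposure in 3 ways: 100 µg/kg/day under the skin as injections of 50 µg/kg for 4 days with islets taken 16 hours after the last, 2 days at that daily dose, or 1 nM for 48 hours. Samples are called biological replicates, and the sources used here do not give the number of animals in each, so the spread between samples may be partly technical. Endocrine transcripts were abundant: insulin (Ins2) read 15.29 ± 0.02 in controls and 15.29 ± 0.05 after BPA. Glucagon (Gcg) read 15.10 ± 0.04 and 15.02 ± 0.06 (log2 signal, SD, n = 3 per group). Acinar transcripts were abundant too. The summed signal (log2) of 10 endocrine markers was 17.56 to 17.70 over the arrays, and that of 11 acinar markers 15.99 to 17.88. The acinar sum was the higher one in control replicate 2 (17.72 against 17.60) and BPA replicate 1 (17.88 against 17.56). In whole islets, fewer cells of a type and less RNA per cell cannot be told apart.

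SR proteins bind exonic sequences through RNA recognition motifs and recruit the spliceosome through a tail rich in arginine and serine, while hnRNPs coat nascent transcripts and often repress nearby splice sites. SR protein kinases of the Srpk family act mainly in the cytoplasm and drive SR proteins into the nucleus, and the Clk kinases phosphorylate them further in nuclear speckles, where they are stored. Many of these genes control their own messages by alternative exons that lead to decay of the transcript, so 1 gene can yield several transcripts, and probe sets of the gene can see different ones.

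The windows upstream of the starts of Srpk2 and Prrc2c are shown because these genes had the largest differences among members on their brightest probe sets, and because Srpk2 has several annotated starts. They are the 250 bases before each start in RefSeq, 5′ to 3′ on the gene's strand (minus for both, build GRCm38.p6). Capitals mark GGTCA, the arm of the oestrogen response element, and the GC box GGGCGG, on either strand.
Srpk2, chr5:23676461-23676710: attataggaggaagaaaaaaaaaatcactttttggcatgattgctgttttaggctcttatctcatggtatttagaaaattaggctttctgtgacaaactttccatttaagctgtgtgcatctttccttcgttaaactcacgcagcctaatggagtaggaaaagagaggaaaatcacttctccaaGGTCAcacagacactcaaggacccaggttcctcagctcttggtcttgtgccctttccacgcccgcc
Srpk2, chr5:23675968-23676217: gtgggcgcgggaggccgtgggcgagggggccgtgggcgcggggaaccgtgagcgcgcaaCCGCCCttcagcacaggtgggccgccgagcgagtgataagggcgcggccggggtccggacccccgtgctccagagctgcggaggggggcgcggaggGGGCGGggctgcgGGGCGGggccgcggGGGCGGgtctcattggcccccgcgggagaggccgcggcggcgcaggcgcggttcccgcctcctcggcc
Srpk2, chr5:23616572-23616821: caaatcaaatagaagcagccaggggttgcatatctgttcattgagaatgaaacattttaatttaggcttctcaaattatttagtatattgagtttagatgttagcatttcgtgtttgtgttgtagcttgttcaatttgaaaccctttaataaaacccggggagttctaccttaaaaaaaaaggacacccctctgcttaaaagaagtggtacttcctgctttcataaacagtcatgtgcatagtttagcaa
Prrc2c, chr1:162740557-162740806: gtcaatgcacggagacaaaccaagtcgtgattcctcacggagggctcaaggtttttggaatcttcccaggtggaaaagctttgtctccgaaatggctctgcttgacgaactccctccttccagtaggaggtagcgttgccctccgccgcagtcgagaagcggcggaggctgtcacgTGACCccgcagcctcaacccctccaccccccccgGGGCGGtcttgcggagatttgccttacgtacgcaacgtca

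The Srpk2 windows differ in make-up. The window at chr5:23675968-23676217 holds 4 GC boxes and is 81.6% G and C, the upstream window holds 1 GGTCA at 42.4% G and C, and the window at chr5:23616572-23616821 holds neither motif at 34.8%. The Prrc2c window holds 1 GGTCA and 1 GC box. RefSeq windows were found for 42 of the 47 member genes, 57 windows in all. The full oestrogen response element (GGTCA and TGACC with any 3 bases between them) was in 0 of the 57, and in 0.0639% of all 32851 windows. GGTCA, which every full element also contains, was in 40.4% of the members' windows and in 35.2% of all. The GC box was in 71.9% against 32.7%, and TGACG, which occurs in the cAMP response element, in 50.9% against 17.8%. The median G and C content was 63.2% in the members' windows and 52.4% in all. A match of letters is a description and shows no binding.

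Signals are the authors' deposited log2 values, with array medians of 6.55 to 6.65. Probe sets with a mean above 6.60, the median of all, were kept: 22518 of the table, and 129 of the members' 159, which belong to 45 of the 47 genes. The nearest members on either side of that limit were a probe set of Srsf1 at 6.62 (kept) and one of Tra2a at 6.51 (not kept). Control replicate 3 and BPA replicate 3 stood apart from the other 4 arrays: on the first principal component of the kept probe sets (55.9% of the variance) they scored 47.2 and 36.3, the others -37.5 to -3.2, so results are also given without them. A measure that follows RNA integrity separated the groups. The 3′ minus 5′ signal of the beta-actin control transcript was 3.35 to 3.80 in controls and 2.61 to 2.98 after BPA, and that of Gapdh 3.40 to 3.79 and 2.58 to 2.99. Acinar signal varied as well. Of 18 listed acinar markers 11 were tested. Their summed signal (log2) was 17.44, 17.72 and 15.99 in controls, in order of replicate, and 17.88, 17.23 and 16.78 after BPA. That of 13 stellate cell and fibroblast markers was 14.08, 14.04 and 13.41 against 14.45, 14.07 and 13.77. Both sums were thus lowest in the replicate 3 array of each group. The sum of 11 of 12 immune markers was 12.35 to 12.74 in controls and 12.50 to 13.11 after BPA. The groups overlapped in these sums. The 5 tested nerve and glia markers summed to 11.68 to 11.97 and 11.95 to 12.16, and their mean deviation from the 6-array mean did not overlap (-0.42 to 0.06 in controls, 0.12 to 0.31 after BPA). Single markers without overlap were Bhlha15 (0.45), C1qa (0.48), Tagln (0.40), Esam (0.19), Iapp (0.07) and Th (0.74), higher after BPA, and Pdx1 (-0.21) and G6pc2 (-0.18), lower. They were picked from all tested markers, and 7.83% of the whole table lay wholly above and 4.35% wholly below. Other markers of a list could read the other way. Of 7 endothelial markers 3 read higher and 4 lower, and of 11 immune markers 8 higher and 3 lower. The part of the 3′ minus 5′ measure and of these cells in the differences below was not tested.

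Most of the 45 member genes differed little between BPA and control islets on their brightest kept probe set. The difference of group means lay within 0.25 on the log2 scale for 36 of them, and was smaller than its standard error for 27. Of the 45, 26 read lower and 19 higher after BPA, with a median of -0.014 and quartiles of -0.17 and 0.048. That median was -0.069 with the mean of a gene's kept probe sets, -0.12 with its most variable one and 0.0076 with the arrays centred on their medians, so its direction is not settled. Over all 11787 genes tested, 42.3% read lower and the median was 0.028, with quartiles of -0.076 and 0.14. Small differences were therefore general in the table and not a trait of the members. The lowest were Prrc2c at -1.0 ± 0.15, Srpk2 at -0.73 ± 0.13, Srrm3 at -0.71 ± 0.31 and Srrm2 at -0.51 ± 0.25 (SE). The largest positive difference belonged to Hnrnpl at 0.47 ± 0.18.

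In limma's moderated test of the whole table, 0 of 22518 probe sets (0%) passed an adjusted p of 0.05, so none of the members did. Its lowest adjusted p was 0.655, and 1458 probe sets had an unadjusted p below 0.05. An ordinary test with no shared variance gave 0 and 1446. Counting probe sets whose 3 BPA values all lay below the 3 control values gave 12 of the members' 129, where the whole table had 4.35%; all above gave 3 of 129, where the table had 7.83%. The 12 were 2 of Srpk2 and 1 each of Prrc2c, Clk1, Tra2a, Tra2b, Srsf11, Hnrnpab, Hnrnpa2b1, Hnrnpf, Hnrnph3 and Hnrnpk, and the 3 were of Luc7l, Hnrnpab and Srsf2. Nothing can be read from these counts, because the same comparison chose the set.

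**Figure D1:**
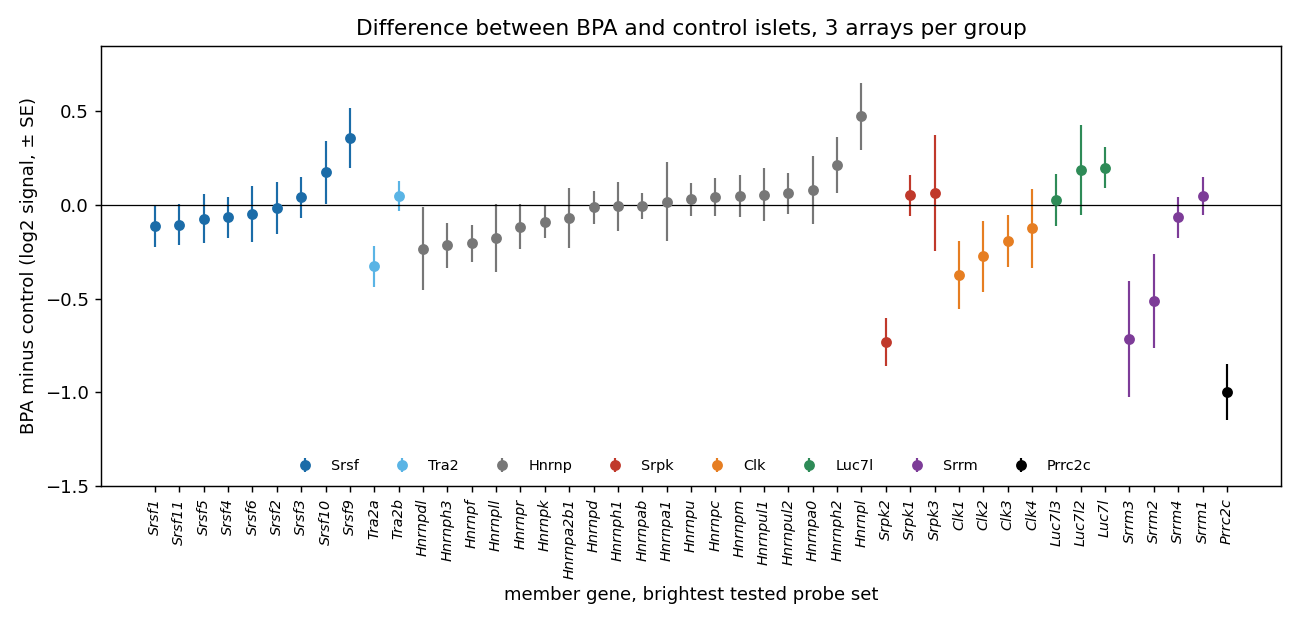
Difference between BPA and control (log2 signal, mean of 3 arrays minus mean of 3 arrays, bars ± SE from limma) of the brightest kept probe set of 45 member genes, coloured by family. Most points lie within 0.25 of 0, while Prrc2c (-1.0), Srpk2 (-0.73), Srrm3 (-0.71) and Srrm2 (-0.51) lie lowest and Hnrnpl (0.47) highest.

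Srpk2 encodes an SR protein kinase, and its brightest probe set, 1417135_at, read 11.62, 11.64 and 11.24 in the controls, in order of replicate, and 10.78, 10.74 and 10.79 after BPA. All BPA arrays lay below all control arrays and close together, with an SD of 0.03 against 0.22 in controls. The means were 10.77 and 11.50, so BPA had 60.2% of the control signal. Without the replicate 3 arrays the difference was -0.87. The next brightest, 1417134_at, read 10.53, 10.70 and 10.55 in controls and 10.34, 10.40 and 10.16 after BPA, again without overlap (-0.29 ± 0.11, SE). 1417136_s_at read 9.82, 9.98 and 9.31 against 9.41, 9.21 and 9.06, where BPA replicate 1 lay above control replicate 3 (-0.47).

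The 3 dimmest probe sets of Srpk2 had overlapping groups. 1435746_at read 8.40, 8.52 and 8.85 in controls and 8.39, 8.59 and 8.45 after BPA. 1448603_at read 7.80, 7.85 and 7.81 against 7.82, 7.81 and 8.02, a difference of 0.07, although its source is the same RefSeq transcript as that of the 3 brightest. 1431372_at read 6.41, 6.68 and 7.21 against 6.49, 6.38 and 6.76. Over its 6 probe sets the differences of Srpk2 ran from -0.73 to 0.07.

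The other kinases of the family differed less on their brightest probe sets. Srpk2 was chosen for its low p-value in this same comparison, so nothing can be read from that contrast. Srpk1, a broadly expressed relative, read 9.85, 10.04 and 9.84 in controls and 10.01, 9.94 and 9.95 after BPA on its brightest probe set (0.05 ± 0.11, SE) and differed by 0.06 ± 0.14 on its second. Both sets overlapped between groups. Srpk3, known from muscle, was kept through 1 of 4 probe sets, with 6.76, 6.51 and 7.25 against 6.59, 6.58 and 7.54, and its 3 others lay below the limit with differences of 0.09 to 0.10.

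**Figure D2:**
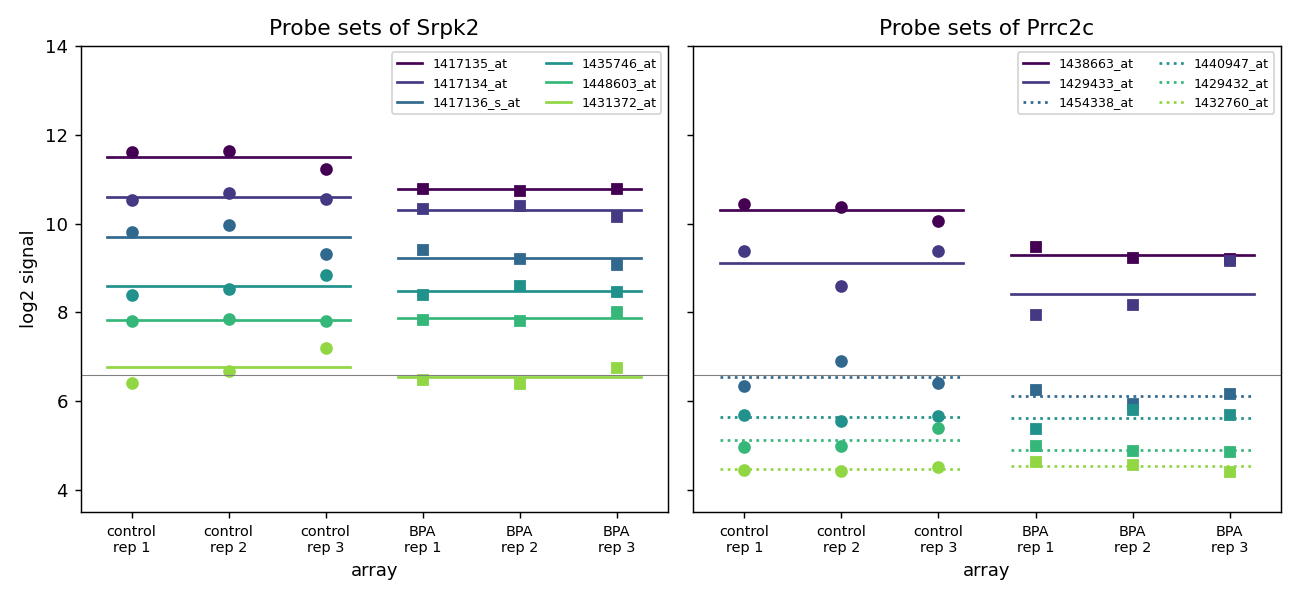
Log2 signal of every probe set of Srpk2 and Prrc2c on the 6 arrays (circles control, squares BPA; horizontal bars are group means, dotted where the probe set lay below the limit of 6.60, drawn as a grey line). The brightest probe set of each gene is lower in all BPA arrays, and the dim probe sets read alike in both groups or overlap, apart from 1454338_at of Prrc2c.

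Prrc2c encodes a large RNA-binding protein of stress granules with a role in translation. Its brightest probe set, 1438663_at, read 10.45, 10.38 and 10.07 in controls and 9.48, 9.22 and 9.20 after BPA. No BPA array reached the controls (SD 0.20 in controls and 0.15 after BPA), and BPA had 49.9% of the control signal. Prrc2c was chosen on this difference, so its separation is given as a description. A further kept probe set, 1429433_at, read 9.38, 8.59 and 9.38 against 7.95, 8.17 and 9.15. There BPA replicate 3 reached the control range, and the difference was -0.69 in all but -0.92 without the replicate 3 arrays.

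The remaining 4 probe sets of Prrc2c lay below the signal limit and were not tested. 1454338_at was lower in every BPA array, with 6.35, 6.90 and 6.41 in controls and 6.26, 5.93 and 6.17 after BPA (-0.43). The other 3 differed by -0.21, -0.02 and 0.07 with overlapping groups. The groups overlapped for the paralogs of Prrc2c, with differences of 0.18 ± 0.14 for Prrc2a and 0.05 ± 0.10 for Prrc2b (SE). Of 21 tested genes of the Prrc2 family and of stress granule and translation partners, limma called 0 higher and 0 lower (lowest adjusted p 0.748). Their median was 0.032, with G3bp1, a stress granule scaffold, at 0.20 and Atxn2, an RNA-binding partner, at -0.26.

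All 4 Clk kinases read lower after BPA on their brightest probe set, by -0.37 to -0.12, where 42.3% of all tested genes read lower. Clk1 read 12.13, 12.13 and 12.62 in controls and 11.66, 12.06 and 12.05 after BPA. The groups did not overlap, but BPA replicates 2 and 3 lay close below the lowest controls. Clk2 read 9.28, 9.11 and 9.53 against 9.03, 8.72 and 9.36, with overlap. The differences were -0.37 ± 0.18 for Clk1, -0.27 ± 0.19 for Clk2, -0.19 ± 0.14 for Clk3 and -0.12 ± 0.21 for Clk4 (SE), and without the replicate 3 arrays -0.27, -0.32, -0.20 and 0.00. Control replicate 3 was the highest array for all 4. Without that array alone Clk1 differed by -0.21 and Clk2 by -0.16. Clk4 had a second probe set below the limit, at -0.03.

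The SR protein genes were close to level. Of 9 Srsf genes with a kept probe set 8 differed by less than 0.25, 6 read lower and 3 higher, and their median was -0.046. Srsf1, the founding SR protein, read 12.12, 12.16 and 12.38 in controls and 11.97, 12.19 and 12.15 after BPA on its brightest probe set (-0.11 ± 0.11, SE). Srsf9 had the largest difference of the family on brightest probe sets, though not over all kept ones, where Srsf11 reached -0.65. It read 9.24, 9.68 and 9.24 in controls and 9.88, 9.78 and 9.57 after BPA (0.36 ± 0.16, SE), with BPA replicate 3 below control replicate 2. Srsf10, a splicing repressor when dephosphorylated, read 9.82, 10.23 and 9.82 against 10.29, 10.20 and 9.90. Its groups overlapped, and its 3 dimmer probe sets differed by -0.10 to 0.01. Srsf2, Srsf3, Srsf4, Srsf5, Srsf6 and Srsf11 differed by -0.11 to 0.04 on their brightest probe sets. Srsf12 lay below the limit on its only probe set, at 4.89 to 5.06 in controls and 4.68 to 5.28 after BPA.

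Tra2a and Tra2b encode SR-like activators that bind purine-rich exonic enhancers. Tra2a read 10.53, 10.22 and 10.41 in controls and 10.06 in each BPA array on its brightest probe set (-0.33 ± 0.11, SE), without overlap. Its second, 1442886_at, read 7.82, 8.77 and 8.65 against 7.83, 7.28 and 8.12 (-0.67), and its dimmest kept one differed by 0.16. Tra2b was level on its brightest probe set, with 12.57, 12.49 and 12.54 in controls and 12.68, 12.57 and 12.49 after BPA. Its dimmer probe sets 1441466_at and 1446496_at were lower, as described further on.

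The hnRNP genes formed the largest family, 19 genes, of which 10 read lower and 9 higher after BPA with a median of -0.0049. On their brightest probe sets 18 of the 19 differed by less than 0.25. Hnrnpl, a repressor that binds CA repeats, was the exception: it read 7.70, 8.02 and 8.29 in controls and 8.29, 8.62 and 8.53 after BPA (0.47 ± 0.18, SE). BPA replicate 1 equalled the highest control at these decimals, and the other BPA arrays lay above it. The second probe set of Hnrnpl was below the limit, at 0.05. Hnrnpk, a poly(C)-binding protein, read 13.83, 13.72 and 13.87 against 13.56, 13.79 and 13.80, with overlap.

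Hnrnpdl read 13.15, 13.25 and 13.68 in controls and 12.89, 12.93 and 13.56 after BPA (-0.23 ± 0.22, SE), where both replicate 3 arrays were highest in their group. Hnrnph2 read 10.56, 10.75 and 10.63 against 10.98, 11.03 and 10.57, so that BPA replicate 3 lay within the control range. Its difference was 0.21 in all and 0.35 without the replicate 3 arrays. Hnrnpf at -0.20 ± 0.10 and Hnrnph3 at -0.21 ± 0.12 were lower in every BPA array on their brightest probe sets. The 3 dimmer kept probe sets of Hnrnpf overlapped between groups, at -0.12 to 0.09. Hnrnpf and Hnrnph3 are relatives of Hnrnph1 and Hnrnph2 that bind G-rich runs. Hnrnph1 itself differed by -0.01 ± 0.13 on its brightest probe set and by -0.33 ± 0.20 on its dimmer one (SE), both with overlap. Over all 52 kept hnRNP probe sets 40 lay within 0.25, 10 below and 2 above.

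The Luc7l genes encode relatives of a yeast U1 snRNP protein that helps to choose the 5′ splice site. All 3 read higher after BPA on their brightest probe sets, by 0.03 to 0.20, while the family's 12 kept probe sets ran from -0.61 to 0.20. Luc7l read 10.61, 10.46 and 10.76 in controls and 10.89, 10.76 and 10.78 after BPA (0.20 ± 0.11, SE), where the lowest BPA array equalled the highest control at these decimals. Luc7l3 read 11.70, 11.61 and 11.92 against 11.79, 11.57 and 11.95, with overlap, and both its dimmer probe sets differed by -0.44. Its brightest reached 0 or changed sign under 3 of 13 alternatives. A probe set of Luc7l below the limit went the other way and had the largest difference of any member probe set. 1452708_a_at read 7.04, 6.50 and 6.92 in controls and 5.85, 5.57 and 5.71 after BPA, a difference of -1.11 that was not tested, and -1.06 without the replicate 3 arrays. It was singled out after its values were seen.

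The Srrm genes encode SR-related matrix proteins. Srrm2, a scaffold of nuclear speckles, read 12.68, 12.36 and 13.14 in controls and 12.12, 11.89 and 12.63 after BPA on its brightest probe set. BPA replicate 3 lay above control replicate 2, so the groups overlapped. The difference of -0.51 became -0.31 without control replicate 3 and -0.72 without BPA replicate 3. Srrm3, a regulator of neural and endocrine microexons, read 7.28, 7.66 and 7.81 against 6.63, 6.42 and 7.56. The first 2 BPA arrays lay below every control, close to the signal limit, and BPA replicate 3 lay among the controls. The difference of -0.71 therefore became -0.94 without the replicate 3 arrays. Srrm3 had a further kept probe set, 1442421_at, that was nearly as bright (mean of all arrays 7.09 against 7.23). It differed by only -0.16 ± 0.31 (SE), with overlap. The low place of Srrm3 among the members thus depends on which of these probe sets represents the gene. Its paralog Srrm4 differed by -0.07 ± 0.11 (SE). Srrm1 was level on its 2 brightest probe sets, at 0.05 and 0.07, and differed by -0.42 to -0.27 on the 4 dimmer kept ones. Srrm4os, a noncoding transcript that the symbol rule includes, lay below the limit at 5.01 to 5.48 in controls and 5.07 to 5.38 after BPA.

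The probe sets of a gene were compared with each other. For 31 member genes more than 1 probe set was kept, and each of their 84 dimmer probe sets was set against the brightest of its gene. The absolute gap between their differences had a median of 0.219 and quartiles of 0.0805 and 0.412, against a median of 0.152 over 7515 dimmer probe sets of 4769 other genes. Without the replicate 3 arrays the members' median gap was 0.279. The dimmer probe set was the lower one in 47.6% of cases among members and in 46.4% among other genes. No error was computed for a gap. A gap above 0.5 was found for 12 of the 84, or 14.3%, and for 7.88% of the others. Of the 12, 5 were dimmer probe sets that read higher than a low brightest one (3 of Srpk2, 1 each of Srrm2 and Srrm3), and 7 read lower. Among the 7515 of other genes, 164 read higher by more than 0.5 and 428 lower. The set was chosen partly on Srpk2, which gave 3 of the 12, and several probe sets of a gene were counted separately. Nothing can therefore be read from the members' larger share or median gap.

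**Figure D3:**
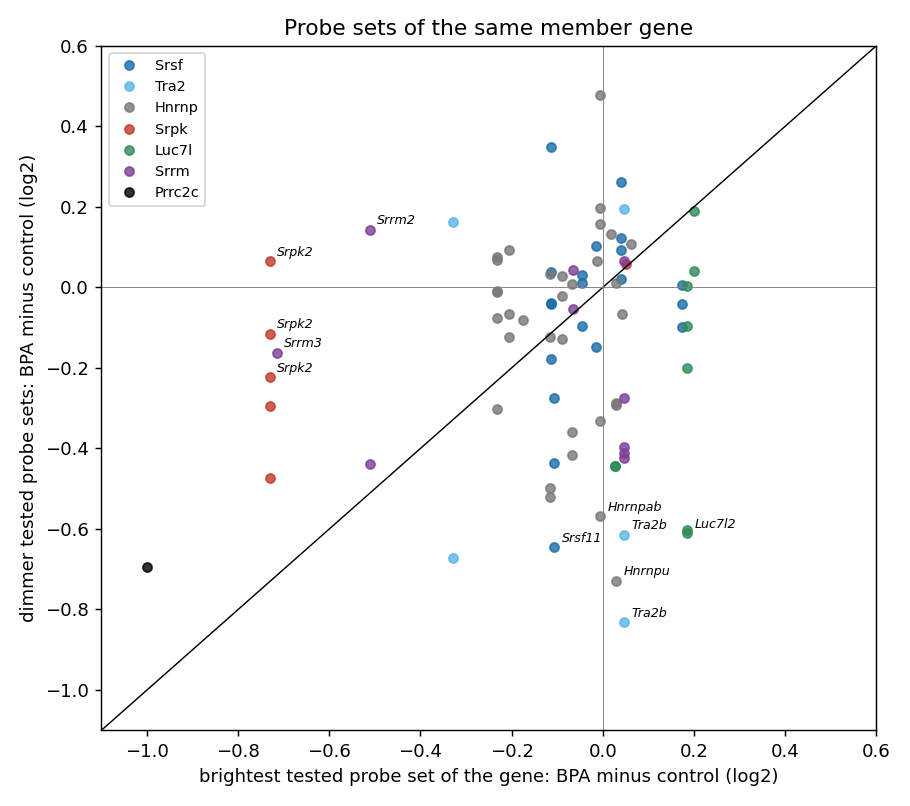
Difference between BPA and control (log2) of each of 84 dimmer kept probe sets against that of the brightest kept probe set of the same gene, coloured by family, with the line of equality and the gene named where the gap exceeds 0.5 (once for the overlapping points of Luc7l2). Srpk2, Srrm2 and Srrm3 lie above the line at the left, and Tra2b, Luc7l2, Hnrnpu, Hnrnpab and Srsf11 lie below it under brightest probe sets near 0.

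The 7 lower ones belonged to Tra2b, Luc7l2, Hnrnpu, Hnrnpab and Srsf11. Tra2b 1441466_at read 9.38, 9.65 and 9.70 in controls and 8.63, 8.18 and 9.42 after BPA (-0.83), and 1446496_at read 7.16, 7.74 and 7.22 against 6.60, 6.77 and 6.90 (-0.61). In the former BPA replicate 3 reached the controls, and in the latter no BPA array did. Luc7l2 1436766_at read 9.56, 9.87 and 10.73 in controls and 8.94, 8.39 and 11.03 after BPA. Here BPA replicate 3 was the highest of all 6 arrays and BPA replicate 2 the lowest, and 1436767_at ran the same way, with 10.34, 11.16 and 11.56 against 10.04, 9.54 and 11.66. The brightest probe set of Luc7l2 read 10.81, 10.99 and 11.54 against 10.93, 11.34 and 11.63.

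Hnrnpu, also known as scaffold attachment factor A, was level on its brightest probe set (12.02, 11.97 and 11.97 against 11.88, 12.09 and 12.08), while 1434390_at read 7.13, 8.22 and 8.56 in controls and 6.94, 6.58 and 8.20 after BPA. Control replicate 1 lay with the low BPA arrays there, so the groups overlapped. Srsf11 1430077_at read 8.33, 8.90 and 9.06 against 7.95, 7.51 and 8.89, with the same order of arrays within BPA. Over the 7, BPA replicate 2 was the lowest array in 5. Same-numbered arrays are not known to be pairs, so their differences describe no replicate effect. These had a median of -0.55 for replicate 1, -1.47 for replicate 2 and -0.28 for replicate 3. The mean deviation of the 7 from the 6-array mean was -0.03, 0.43 and 0.58 in the controls and -0.55, -0.86 and 0.43 after BPA. The probe sets were picked for a low BPA difference, so only the order of arrays within a group is free of that choice. On that mean, replicate 3 was the highest array of each group. Single probe sets departed from this: Hnrnpab 1426114_at was lowest in replicate 3 of both groups (11.50 and 11.17). For Tra2b 1446496_at control replicate 2 was the highest control.

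Hnrnpab, a binder of AU-rich RNA, had the widest range of differences between kept probe sets, from -0.57 to 0.48. Its brightest read 13.30, 13.31 and 13.34 in controls and 13.27, 13.38 and 13.29 after BPA. 1426114_at read 12.15, 11.75 and 11.50 against 11.30, 11.22 and 11.17, lower in every BPA array, and 1453849_s_at read 9.68, 9.63 and 9.78 against 10.39, 10.24 and 9.90, higher in every BPA array. These opposite differences, at -0.57 ± 0.17 and 0.48 ± 0.15 (SE), stood on the same 6 arrays. Which transcripts or positions the probe sets of a gene cover was not analysed here.

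**Figure D4:**
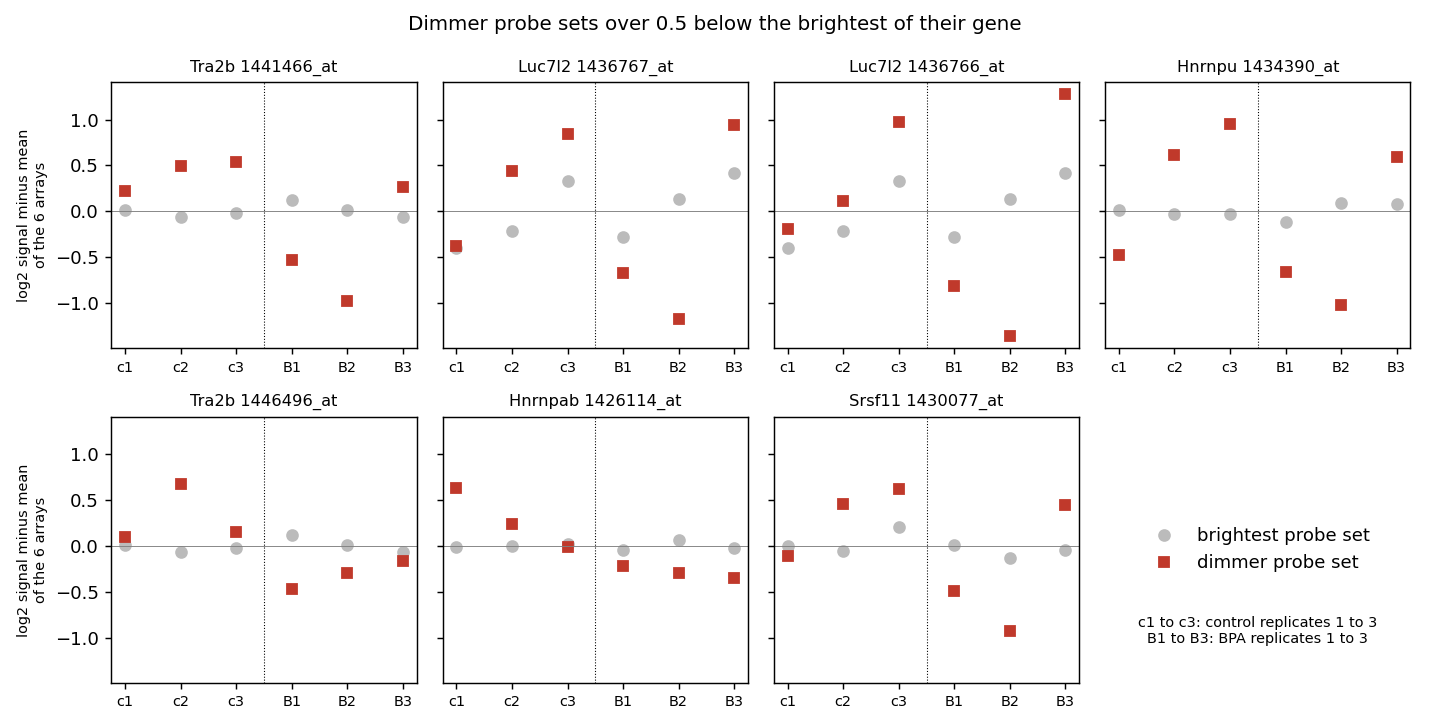
Log2 signal minus the mean of the 6 arrays for the 7 dimmer probe sets of members whose difference lay over 0.5 below that of the brightest probe set of the gene (red squares), with that brightest probe set (grey circles). BPA replicate 2 is the lowest array in 5 of the 7, and the brightest probe sets of Tra2b, Hnrnpu, Hnrnpab and Srsf11 vary little.

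Probe sets can be sorted by the sequence they were designed on, which the annotation names. Of the 129 kept member probe sets 65 rest on expressed sequence tags, single reads of cDNA ends, and 26 on RefSeq transcripts. Those from tags had a median difference of -0.082, and 61.5% read lower, against 50.5% of 9652 other kept probe sets from tags. The 24 from cDNA or gene entries had a median of -0.036, and 62.5% read lower, against 39% of 4597 others. Those from RefSeq had a median of -0.024, and 53.8% read lower, against 34.4% of 3354 others. By signal, the 65 members with a mean above 10 had a median of -0.013, and the 64 at or below it one of -0.086, where the other genes' probe sets had -0.0078 and 0.033.

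Genes of splicing outside the member families were read from lists. Of 69 tested core spliceosome genes 47 read higher and 22 lower after BPA, with a median of 0.056, and limma called 0 in either direction (lowest adjusted p 0.655). Snrpd3, an Sm protein of the snRNP core, read 9.76 ± 0.18 after BPA and 8.98 ± 0.28 in controls, a difference of 0.79 (SD, n = 3 per group). U2af1, which recognises the 3′ splice site, differed by 0.56 ± 0.19 (SE). Of SR-related and nuclear speckle proteins 34 of 50 read lower, with a median of -0.083 and 0 called (lowest adjusted p 0.655). Over all tested genes 42.3% read lower with a median of 0.028, and no difference between the lists was tested. Rbm25, which has an arginine and glutamate rich domain, differed by -0.70 ± 0.29 and Ccnl2, a cyclin of speckles, by -0.68 ± 0.30 (SE). The summed signal of that list (log2) was 16.67, 16.63 and 16.83 in controls and 16.45, 16.48 and 16.69 after BPA, so the replicate 3 arrays were highest in each group.

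In the remaining lists the median ran from -0.021 to 0.084. Regulators with tissue patterns, such as the Ptbp, Rbfox, Celf and Elavl genes, had 19 higher and 24 lower with a median of -0.021, and the largest differences, in Tial1 and Ptbp2, were both -0.39. Other kinases and phosphatases of splicing factors had 14 higher and 11 lower (median 0.02), with Ppp1r8, a nuclear inhibitor of protein phosphatase 1, at 0.32 and the kinase gene Akt1 at 0.24. Genes of nonsense-mediated decay and the exon junction complex had 10 higher and 3 lower (median 0.084), with Rbm8a of that complex and the helicase gene Upf1 both at 0.24. Limma called 0 genes of these 3 lists in either direction, with lowest adjusted p of 0.734, 0.777 and 0.786.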

How the data were processed

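Probe signals were read from 1 table in which the authors deposited a log2 value per probe set and array; per the submitters' processing notes MAS5 was named, with no version or role, and no detection calls were used here. The sources used here do not say how probes were summarised and scaled, so values were used as deposited. Of 45101 probe sets 64 are array controls. Of the rest 34945 carried 1 gene, 932 several and 9160 none in the platform annotation. Symbols were updated through the Entrez identifier, and 34741 matched RefSeq. A further 7 probe sets that name a member family beside other genes were left out.

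The whole table was fitted with limma 3.58.1 in R 4.3.3 (moderated by eBayes with its trend option; tests two-sided and adjusted by Benjamini-Hochberg over 22518 kept probe sets, threshold 0.05), which was checked on simulated data. Standard errors are limma's. A gene is represented by its brightest kept probe set. Members, gene lists and tests were chosen with earlier results of these data known. Values in every array are given for Srpk2 and Prrc2c, the 6 largest differences in each direction, the 6 widest ranges between probe sets and the brightest gene of each family; each list gives its 2 largest differences; further members and probe sets were named after their values were seen. Probe set source kinds were read from accession prefixes, and motifs were searched with Python 3.11.15. The number of arrays limits the precision. Alternatives were other scalings and filters, other variance models, the replicate number as a block, and arrays left out.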

Additional observations from a re-analysis of the deposited data

How the results depend on the processing

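With 3 arrays per group, small differences could not be resolved: the standard error of the members' brightest probe sets had a median of 0.13. Limma called 0 probe sets under all 16 alternatives, with 936 to 3162 at an unadjusted p under 0.05 among those that kept the main filter, 2643 with no filter and 789 with the filter at the 75th percentile. The lowest adjusted p over all of them ran from 0.181 to 0.999. With the replicate number as a block it was 0.19, with 0 called and 3042 at an unadjusted p under 0.05. Deviations of same-numbered arrays correlated at 0.476, 0.0781 and 0.706, and control replicate 2 correlated best with BPA replicate 1, so the numbers were not treated as pairs. In this balanced design the block cannot change a difference of group means, so the members' median stayed at -0.014.

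The count of member genes lower after BPA (26 of 45) ran from 22 to 29 over its alternatives. The members' median of -0.014 moved by more than the spread between arrays (0.044) when a gene was represented by the mean of its kept probe sets (-0.069) or by its most variable one (-0.12). It turned to 0.0076 under median centring, within that spread. Leaving out single arrays gave -0.057 (without BPA replicate 3) to -0.0049 (without BPA replicate 1). The median gap between probe sets ran from 0.158 with the filter at the 75th percentile to 0.305 without BPA replicate 3.

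Srpk2 ran from -0.87 to -0.66 and Prrc2c from -1.12 to -0.93 over 13 alternatives each. Both were chosen for low p-values in these arrays, which favours a small spread within groups, so nothing can be read from their narrow ranges. Others moved more when a single array was left out: Srrm3 ran from -1.06 (without BPA replicate 3) to -0.49 (without BPA replicate 2), Srrm2 from -0.72 (without BPA replicate 3) to -0.31 (without control replicate 3), Clk1 from -0.46 (without control replicate 2) to -0.21 (without control replicate 3), Clk2 from -0.43 (without BPA replicate 3) to -0.12 (without BPA replicate 2), Hnrnpdl from -0.45 (without BPA replicate 3) to -0.07 (without control replicate 3), and Luc7l2 from 0.02 (without BPA replicate 3) to 0.40 (without control replicate 3). Further genes are given without ranking, and some had narrower ranges than Srpk2. Hnrnph2 ran from 0.13 to 0.36, Srsf10 from 0.09 to 0.31, Srsf1 from -0.16 to -0.03 and Hnrnpk from -0.13 to -0.01. Hnrnpl ran from 0.32 to 0.62, Srsf9 from 0.28 to 0.50, Luc7l from 0.13 to 0.29 and Tra2a from -0.41 to -0.26. Hnrnpab, Hnrnpu, Luc7l3 and Tra2b, all near 0 on their brightest probe sets, reached 0 or changed sign in 9, 3, 3 and 1 of 13. Of the 13, the replicate block and the changed filters cannot alter the difference of a given probe set.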
